A study of Mus musculus with 23 samples.

Results

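The 9 genes described here are known from blood monocytes and were followed in sorted mouse brain microglia: Ly6c2, Ccr2, Plac8, Vcan, Chil3, S100a4, Itga4, Fn1 and Clec12a. They were taken by symbol from the deposited tables, where all 9 of the 9 names were found among 53090 genes. Poly(A) RNA was sequenced from 23 libraries of brain microglia of female C57BL/6 mice. The groups were young (Y, n = 7), young with repopulated microglia (Y-re, n = 3), old (O, n = 5) and old with repopulated microglia (O-re, n = 8). Repopulated mice had eaten AIN-76A chow holding 1200 ppm of PLX5622, an inhibitor of the receptor CSF1R on which microglia depend, and treatment controls ate this chow without the drug, per the labels. The sources used here do not give the ages, how long the diet lasted or when the cells were taken after it. The labels do not say whether a library came from 1 mouse or a pool, so p-values measure the spread between these libraries. The RNA text names microglia sorted by flow cytometry, with no gate given, and another text describes magnetic selection on CD11b, a surface protein that monocytes also carry, followed by culture.

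Monocytes are made in bone marrow and travel in the blood, and the classical kind carries high Ly6C and the chemokine receptor CCR2. CCR2 lets them leave the marrow toward CCL2, and integrin alpha 4 lets them hold to VCAM-1 and fibronectin on vessel walls. Microglia arise separately, early in development, and renew themselves within the brain, so classical monocyte genes are normally low in them. In these bulk libraries, more cells of a type and more RNA per cell cannot be told apart.

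Each library held 43.66 to 58.19 M counts (M, 1e06). All 10 microglia marker genes, among them P2ry12, Tmem119 and Sall1, had counts in every library, and their summed level ran from 10000 to 32200 counts per M (CPM, scaled by TMM). Young replicate 3 had the fewest genes with a count of all libraries, 16399, and the most was 22208, in an old library. It also stood apart in most of the genes described here, so results against young libraries are given with and without it. The sample titles number the libraries, and numbers 1 to 11 (3 Y, 2 O, 5 O-re) differed from numbers 12 to 24 (4 Y, 3 Y-re, 3 O, 3 O-re), so within-run values follow too. The sources used here do not say what the numbers stand for.

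In old libraries 5 of the 9 genes were higher than in young ones: Ly6c2, Ccr2, Plac8, Itga4 and Clec12a. The edgeR quasi-likelihood test over 18720 genes called 2.6% of all genes higher in that comparison, at a Benjamini-Hochberg adjusted p under 0.05. All 9 fitted changes were above 0, with a median log2 change of 3.14 beside -0.012 over all genes tested. In old repopulated libraries 7 of the 9 were higher than in young ones, where 9.29% of all genes were called higher (median log2 change 3.62 over the 9 and -0.017 over all genes). In young repopulated libraries 1 of the 9, Clec12a, was higher than in young ones, with 0.828% of all genes called higher (medians 1.4 and -0.035). These 3 comparisons share the young libraries. Between old repopulated and old libraries 0 of the 9 were called by edgeR, where 0.278% of all genes were called in either direction. In that last comparison 1 of the 9, Ly6c2, had an unadjusted p under 0.05 (0.0258), and DESeq2 and limma voom with sample quality weights also called 0, each with 2.21% of all genes it tested called in either direction.

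**Figure D1:**
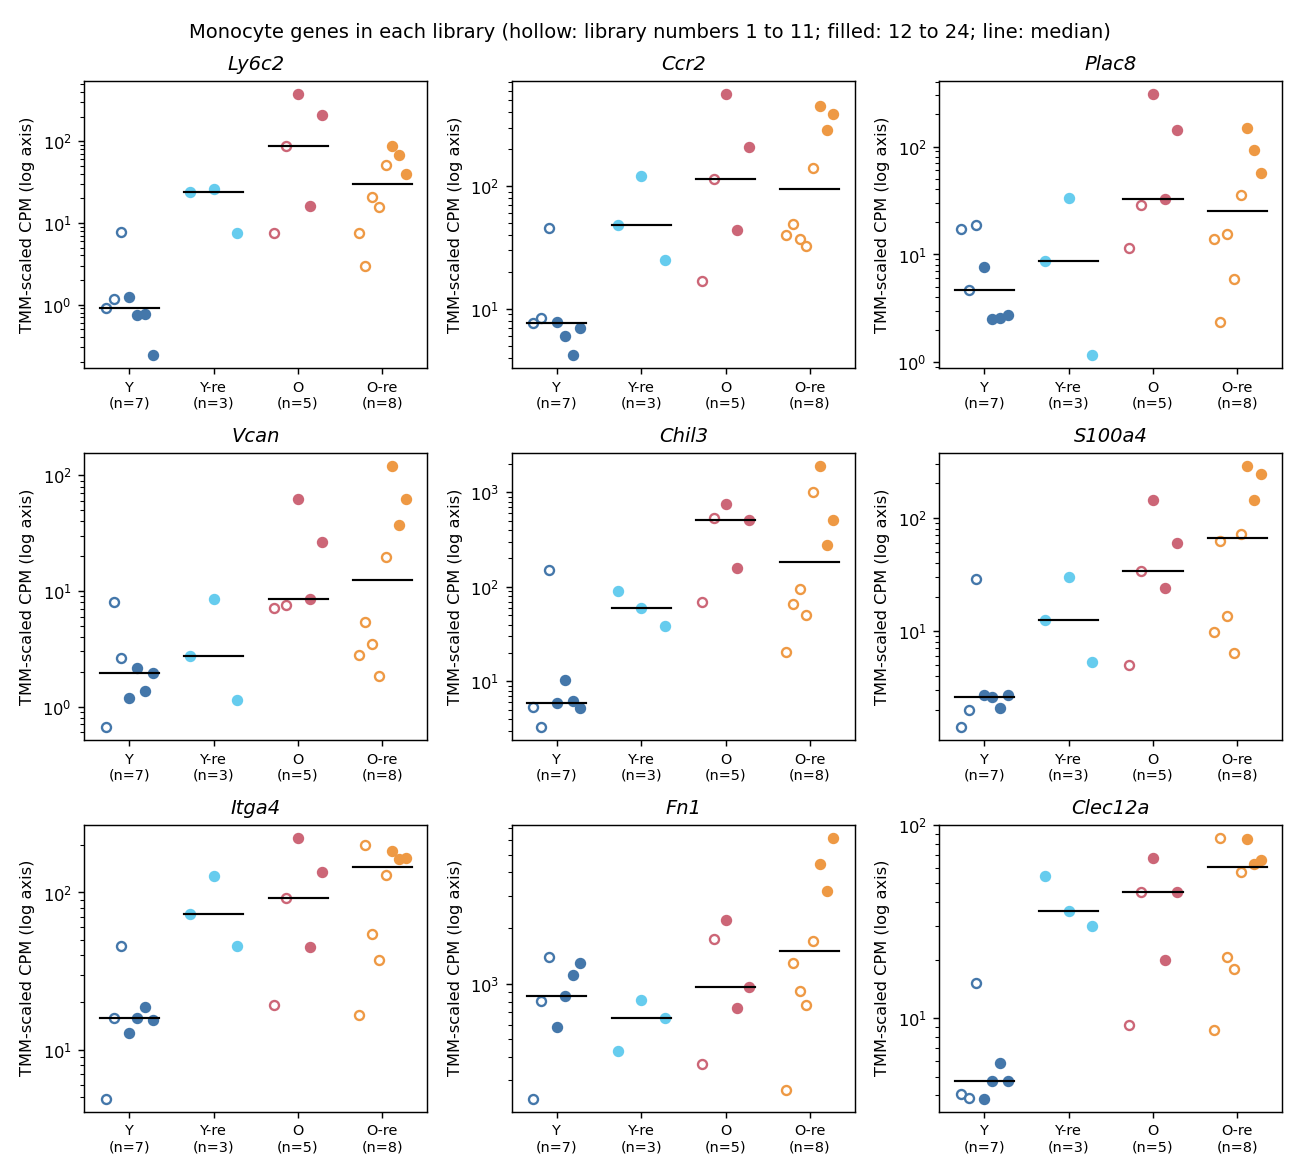
TMM-scaled CPM of the 9 monocyte genes (log axis) in each library of the 4 groups, with hollow circles for library numbers 1 to 11, filled circles for 12 to 24 and a line at the group median. Young libraries lie low, apart from replicate 3, and old and old repopulated libraries spread over more than 10-fold for most genes; Fn1 is high in every group.

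Ly6c2 encodes the Ly6C surface protein that marks classical monocytes (ENSMUSG00000022584.14, GRCm38 chromosome 15, 75108158 to 75111970, minus strand, protein-coding). In young libraries it ran from 0.241 to 7.76 CPM with a median of 0.897. Young repopulated libraries held 23.7, 26.2 and 7.62 CPM. Old libraries held 7.56, 86.8, 378, 15.9 and 208 CPM. Old repopulated libraries ran from 2.97 to 86.4 CPM with a median of 30.3. The 5 old libraries thus differed among themselves by 50.0-fold, and only young replicate 3, at 7.76 CPM, lay above the lowest of them. Relative to young, Ly6c2 was higher by 6.25 ± 1 on the log2 scale in old libraries (SE, edgeR adjusted p 0.00367) and by 4.33 ± 0.89 in old repopulated libraries (adjusted p 0.00327), and both calls held without any 1 library. In young repopulated libraries the change was 3.39 ± 0.98 (adjusted p 0.0852), and 4.5 (adjusted p 0.0192) without young replicate 3. With all libraries, this change was called by DESeq2 (3.37, adjusted p 0.031) and not by voom. EdgeR called it in 1 of the 23 fits that left out 1 library (adjusted p up to 0.284). Ly6c1, a close relative of Ly6c2 that is abundant in endothelium, had medians between 0.761 and 1.01 CPM in the 4 groups. RSEM divides reads between similar genes, so both counts are uncertain.

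Ccr2 encodes the receptor for CCL2 (ENSMUSG00000049103.14, chromosome 9, 124101950 to 124113557, plus strand, protein-coding). Its young libraries ran from 4.2 to 45.8 CPM with a median of 7.7. In young repopulated libraries it was 48.1, 122 and 24.9 CPM, and in old libraries 16.9, 114, 562, 43.8 and 208 CPM. The 8 old repopulated libraries ran from 32.3 to 452 CPM with a median of 95.1. With young replicate 3 left out, the highest young value was 8.43 CPM, below all libraries of the other 3 groups. Ccr2 was higher by 3.93 ± 0.86 (SE, edgeR adjusted p 0.0149) in old and by 3.85 ± 0.82 (adjusted p 0.00393) in old repopulated libraries relative to young. The first call was lost without old replicate 3 (2.95, adjusted p 0.106). Of the CCR2 ligands, Ccl2 rose by 1.12 ± 0.34 (adjusted p 0.0297) and Ccl7 by 3.15 ± 0.74 (adjusted p 0.00717) in old repopulated relative to young libraries, and neither was called in old relative to young libraries. Ccl12, another ligand, was not called in any comparison.

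Itga4 encodes integrin alpha 4, which pairs with beta 1 or beta 7 and binds VCAM-1 and fibronectin (ENSMUSG00000027009.18, chromosome 2, 79255426 to 79333123, plus strand, protein-coding). It ran from 4.88 to 45.6 CPM in young libraries with a median of 15.8. Young repopulated libraries held 72.8, 127 and 45.7 CPM, and old ones 19.3, 91.8, 223, 44.8 and 135 CPM. Old repopulated libraries ran from 16.6 to 201 CPM with a median of 146. All 3 young repopulated libraries lay above the young range, the lowest of them at 45.7 CPM against 45.6 in young replicate 3. The log2 change relative to young was 2.48 ± 0.59 (SE, edgeR adjusted p 0.0227) in old, 2.69 ± 0.56 (adjusted p 0.00329) in old repopulated and 2.15 ± 0.65 (adjusted p 0.0991) in young repopulated libraries. Voom called the change in young repopulated libraries (2.04, adjusted p 0.00483) and DESeq2 did not. The call in old libraries was lost without young replicates 4, 6 or 7 (adjusted p 0.0546, 0.0508 and 0.0535) and without old replicates 3 or 5 (0.148 and 0.0642). Itgb7, the beta 7 partner, rose by 4.39 ± 0.9 in old (adjusted p 0.0103) and by 4.54 ± 0.87 in old repopulated libraries (adjusted p 0.00201), whereas Itgb1, the beta 1 partner, was not called (-0.08 ± 0.12 and 0.1 ± 0.1). Vcam1, the ligand, rose by 1.86 ± 0.42 in young repopulated (adjusted p 0.028) and by 1.48 ± 0.34 in old repopulated libraries (adjusted p 0.00601), both relative to young. Of the 8 ligands and partners listed, 1 was called higher in old, 1 in young repopulated and 5 in old repopulated libraries. The shares of all genes called higher were 2.6%, 0.828% and 9.29%. The last of the 5 was Itgav, which encodes another fibronectin-binding integrin chain (0.53 ± 0.18, edgeR adjusted p 0.05 after rounding).

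Clec12a encodes an inhibitory C-type lectin receptor of myeloid cells (ENSMUSG00000053063.11, chromosome 6, 129342691 to 129365303, plus strand, protein-coding). Young libraries ran from 3.84 to 15.2 CPM with a median of 4.72, the narrowest young spread of the 9 genes. Young repopulated libraries held 54.5, 35.9 and 30.1 CPM, all above the young range, and old libraries held 9.28, 45.3, 67.7, 20.0 and 45.0 CPM. Old repopulated libraries ran from 8.72 to 86.3 CPM with a median of 60.5. Clec12a was higher than in young libraries by 2.63 ± 0.52 in old (SE, edgeR adjusted p 0.00798), 3.07 ± 0.5 in old repopulated (adjusted p 0.000674) and 2.73 ± 0.57 in young repopulated libraries (adjusted p 0.0175). It was the only one of the 9 genes called in all 3 of these comparisons. The first 2 calls held without any 1 library, and the third was lost without young repopulated replicate 1 (2.45, adjusted p 0.122) or replicate 2 (2.84, adjusted p 0.0598).

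Plac8 encodes a small cysteine-rich protein abundant in myeloid cells (ENSMUSG00000029322.12, chromosome 5, 100553725 to 100572245, minus strand, protein-coding). Young libraries ran from 2.54 to 18.9 CPM with a median of 4.72, and young repopulated ones held 8.67, 33.2 and 1.17 CPM. Old libraries held 11.4, 28.7, 306, 32.9 and 143 CPM, and old repopulated ones ran from 2.39 to 148 CPM with a median of 25.6. Here the groups overlapped also without young replicate 3, since young replicate 1 stood at 17.2 CPM. Plac8 rose by 3.69 ± 0.96 (SE, edgeR adjusted p 0.0371) in old relative to young libraries. That call was lost without young replicates 2, 4, 5, 6 or 7 (adjusted p 0.0744, 0.0741, 0.0767, 0.081 and 0.083) and without old replicates 3 or 5 (0.236 and 0.0893). The change in old repopulated relative to young libraries was 2.52 ± 0.87 (adjusted p 0.0519), just outside the threshold. It was called by DESeq2 (adjusted p 0.013), by voom (0.0127), with only the groups compared (0.04), in library numbers 12 to 24 (4.68, 0.00183) and with any 1 of 9 single libraries left out, young replicate 3 among them (0.0304 to 0.0475). Over all 23 edgeR fits that left out 1 library, the adjusted p reached 0.132.

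Chil3 encodes Ym1, a secreted chitinase-like lectin without chitinase activity (ENSMUSG00000040809.10, chromosome 3, 106147554 to 106167564, minus strand, protein-coding). In young libraries it ran from 3.3 to 152 CPM with a median of 5.97, and the highest value, in replicate 3, was followed by 10.3 CPM. Young repopulated libraries held 90.7, 59.4 and 38.6 CPM, and old ones 69.9, 535, 756, 159 and 513 CPM. Old repopulated libraries ran from 20.4 to 1910 CPM with a median of 185, a spread of 93.5-fold. Chil3 rose by 4.2 ± 1.06 (SE, edgeR adjusted p 0.011) in old repopulated relative to young libraries. In old relative to young libraries the change was 3.92 ± 1.09 (adjusted p 0.0532), and 6.07 (adjusted p 0.00179) without young replicate 3. With all libraries, this change was called by DESeq2 (3.9, adjusted p 0.00474) and by voom (5.58, 0.000251). EdgeR called it in 6 of the 23 fits that left out 1 library (adjusted p up to 0.191). Its relative Chil4 had no count in any young library and was too low to test.

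S100a4 encodes a calcium-binding protein that acts on non-muscle myosin (ENSMUSG00000001020.8, chromosome 3, 90603771 to 90606045, plus strand, protein-coding). Young libraries ran from 1.42 to 28.7 CPM with a median of 2.63, and the next highest after replicate 3 was 2.73. Young repopulated libraries held 12.4, 30.0 and 5.28 CPM, and old ones 4.97, 34.0, 144, 23.8 and 59.9 CPM. Old repopulated libraries ran from 6.37 to 286 CPM with a median of 66.3. The rise in old repopulated relative to young libraries was 4.11 ± 0.95 (SE, edgeR adjusted p 0.00629). In old relative to young libraries the change was 3.14 ± 0.96 (adjusted p 0.0801), and 4.56 (adjusted p 0.00775) without young replicate 3. With all libraries, this change was called by DESeq2 (3.12, adjusted p 0.0182) and by voom (3.82, 0.0229). EdgeR called it in 2 of the 23 fits that left out 1 library (adjusted p up to 0.396). S100a6, a neighbour in the same family, rose by 4.39 ± 0.91 (adjusted p 0.0106) and 4.79 ± 0.89 (adjusted p 0.00149) in old and old repopulated relative to young libraries.

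Vcan encodes versican, a proteoglycan of the extracellular matrix (ENSMUSG00000021614.16, chromosome 13, 89655312 to 89742509, minus strand, protein-coding). It was the lowest of the 9 per transcript length in all 4 groups, with median TPM (transcripts per M, as deposited) of 0.54 in young, 0.65 in young repopulated, 2.12 in old and 3.63 in old repopulated libraries. In CPM, young libraries ran from 0.667 to 8.0 and young repopulated ones held 2.76, 8.58 and 1.15. Old libraries held 7.14, 7.61, 62.8, 8.53 and 26.4 CPM, and old repopulated ones ran from 1.83 to 121 CPM with a median of 12.6. Young replicate 2, not replicate 3, was the high young library here. Vcan rose by 3.62 ± 0.89 (SE, edgeR adjusted p 0.00935) in old repopulated relative to young libraries. The change in old relative to young libraries was 3.13 ± 0.92 (adjusted p 0.0688), and 3.79 (adjusted p 0.0476) without young replicate 2. With all libraries, that change was called by DESeq2 (3.13, adjusted p 0.0129) and not by voom. EdgeR called it in 5 of the 23 fits that left out 1 library (adjusted p up to 0.38).

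Fn1 encodes fibronectin, the matrix protein that integrins bind (ENSMUSG00000026193.15, chromosome 1, 71585520 to 71653200, minus strand, protein-coding). It differed from the other 8 genes in its level per transcript length: the young median was 265 TPM where the other 8 had young medians from 0.54 TPM for Vcan to 11.9 TPM for Plac8. In CPM, young libraries ran from 239 to 1390 with a median of 864. Young repopulated libraries held 435, 822 and 652 CPM, and old ones 367, 1750, 2220, 741 and 960 CPM. Old repopulated libraries ran from 267 to 6170 CPM with a median of 1510. Fn1 was not called by edgeR in any of the 6 comparisons over all libraries. Its log2 changes relative to young were 0.43 ± 0.57 (SE, edgeR adjusted p 0.799) in old, 1.38 ± 0.52 (0.0735) in old repopulated and -0.5 ± 0.69 (0.813) in young repopulated libraries. With all libraries, the second was called by DESeq2 (1.37, adjusted p 0.0329) and by voom (1.33, 0.0132). EdgeR called it without old repopulated replicate 1 (1.59, adjusted p 0.018) or replicate 4 (1.52, 0.0476). These were 2 of the 23 edgeR fits that left out 1 library, and over all 23 the adjusted p reached 0.197.

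**Figure D2:**
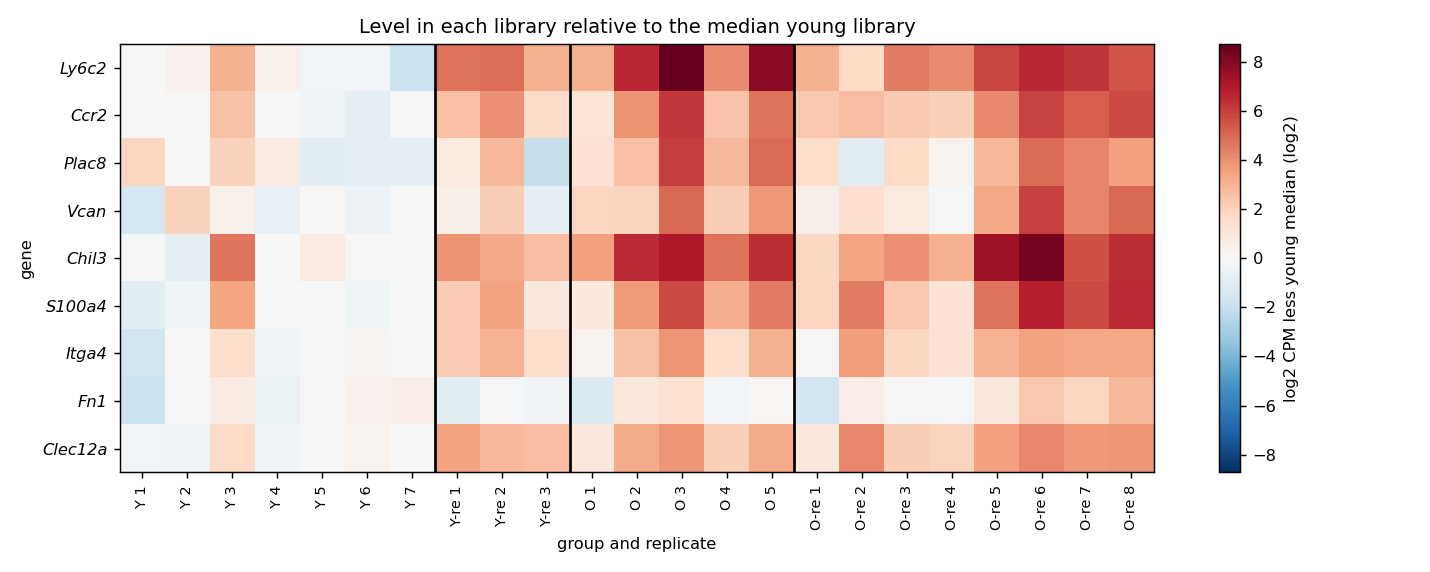
Colour gives log2 CPM of each gene (rows) in each library (columns, by group and replicate) less the gene's median over young libraries, with black lines between groups. Young replicate 3 is red for most genes, old replicates 3 and 5 and old repopulated replicates 5 to 8 are the darkest columns, and Fn1 stays palest.

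The upstream sequences of 3 of the genes are printed because their windows touch no annotated exon and they show a gene with a match and 2 without one. RefSeq promoters of build GRCm38.p6 were matched by symbol for 8 of the 9 genes, not for Fn1. Each sequence is the 250 bases before the start on the gene's strand, 5′ to 3′, with capitals for GAGGAA, the core bound by the myeloid factor PU.1, on either strand.
Ly6c2 (chr15:75111972-75112221, minus strand): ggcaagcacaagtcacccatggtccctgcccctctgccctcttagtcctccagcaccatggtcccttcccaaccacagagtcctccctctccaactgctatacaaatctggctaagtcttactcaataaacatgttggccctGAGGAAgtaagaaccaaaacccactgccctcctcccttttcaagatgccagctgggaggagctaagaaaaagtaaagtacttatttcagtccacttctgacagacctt
Itga4 (chr2:79255176-79255425, plus strand): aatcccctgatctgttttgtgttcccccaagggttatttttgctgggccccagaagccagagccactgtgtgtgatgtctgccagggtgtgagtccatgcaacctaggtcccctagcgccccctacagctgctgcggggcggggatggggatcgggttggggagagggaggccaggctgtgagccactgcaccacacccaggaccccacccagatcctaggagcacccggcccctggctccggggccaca
Chil3 (chr3:106167565-106167814, minus strand): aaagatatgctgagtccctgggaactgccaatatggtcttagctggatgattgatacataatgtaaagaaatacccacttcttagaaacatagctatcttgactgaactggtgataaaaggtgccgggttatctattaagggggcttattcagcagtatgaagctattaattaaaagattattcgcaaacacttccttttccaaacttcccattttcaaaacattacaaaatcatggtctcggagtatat
GAGGAA was present in windows of 3 of the 8 genes (Ly6c2, Plac8 and Clec12a). Counted by window that was 4 of 10, beside 23.3% of all 32851 promoter windows of the same length. The Ly6c2 windows overlap and share a match, so this match enters the window count more than once. TTGCNNAA, a core of C/EBP factors, was searched on both strands too, and was present for 2 of the 8 genes (Plac8 and Clec12a). Counted by window that was 2 of 10, beside 9.6% of all windows. A match is a description of the letters and not a binding site.

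Between old repopulated and old libraries, the 9 genes had 6 fitted changes above 0 and 3 below, with a median log2 change of 0.28. Ly6c2 had the largest, -1.92 ± 0.81 (SE, edgeR adjusted p 0.368), followed by Plac8 at -1.18 ± 0.87 (adjusted p 0.727). S100a4 was at 0.97 ± 0.92 (adjusted p 0.814), Fn1 at 0.96 ± 0.58 (adjusted p 0.633), and Ccr2, at -0.08 ± 0.78 (adjusted p 0.993), changed sign with single libraries left out. The ranges of both groups overlapped for all 9 genes. The test of the difference between the repopulation effect in old and in young mice called 0 of the 9 genes by edgeR, with 0% of all genes called and 1542 genes at an unadjusted p under 0.05. Ly6c2 had the largest such difference, -5.32 ± 1.27 (unadjusted p 0.000355, adjusted p 0.336), and DESeq2 called it (-5.3, adjusted p 0.038), along with 0.285% of all genes it tested. Of the other 8, Clec12a and Itga4 had an unadjusted p under 0.05 (0.00573 and 0.034). Between old and young repopulated libraries edgeR called 0 of the 9 genes and 0% of all genes, with 2183 genes at an unadjusted p under 0.05. All 9 changes were above 0 there, from 0.34 for Clec12a to 2.97 for Chil3, and Vcan, Chil3, S100a4 and Fn1 had unadjusted p of 0.0265, 0.0499, 0.0423 and 0.0187. In that comparison voom with sample quality weights called 4 of the 9 higher, Ccr2, Chil3, S100a4 and Fn1, and 7.66% of all genes higher.

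**Figure D3:**
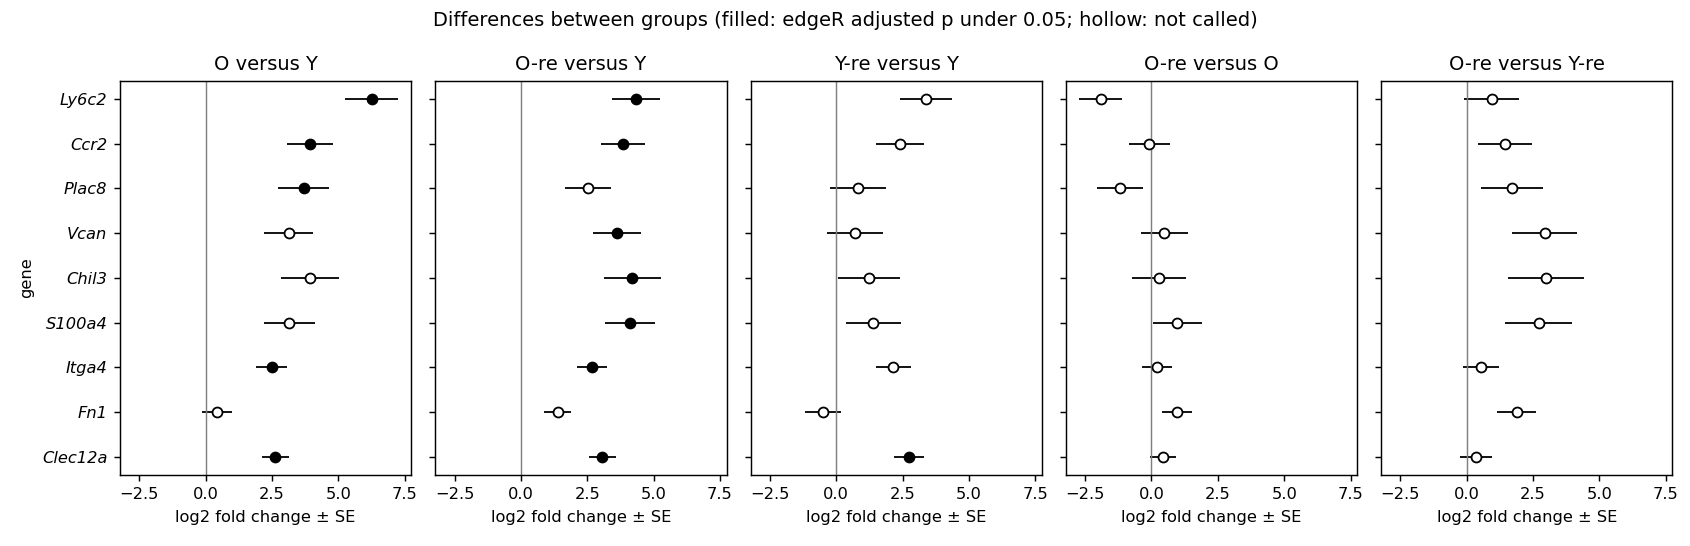
Log2 fold change (x axis) with its standard error for each of the 9 genes (rows) in 5 comparisons, filled where the edgeR adjusted p is under 0.05. Filled points are at 5 genes in O versus Y, 7 in O-re versus Y and 1 in Y-re versus Y, and none in the other 2 panels.

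Young replicate 3 set much of the overlap with young libraries. It was left out because it stood high in most of these genes. The counts without that library, edgeR calls included, are thus a description and not independent support. With all young libraries, every old library lay above the young range for 0 of the 9 genes (1.43% of all genes tested), and without it for 6: Ly6c2, Ccr2, Chil3, S100a4, Itga4 and Clec12a (2.7% of all genes). In young repopulated libraries the count was 2, Itga4 and Clec12a, with all young libraries (5.97% of all genes), and without that library it was the same 6 genes as in old (8.34% of all genes). For old repopulated libraries it went from 0 (0.983%) to 5, the 6 less Itga4 (2.13%). The edgeR test without young replicate 3 called 7 of the 9 genes in old, 8 in old repopulated and 3 in young repopulated relative to young libraries, and it also called more of all genes higher: 3.03%, 9.8% and 1.2%. In old relative to young libraries the count depended on others as well: it was 2 without old replicate 3 (0.499% of all genes called higher), 3 without old replicate 5 (1.06%), 3 without young replicates 4, 6 or 7 (1.42%, 1.36% and 1.38%), and 8 without old replicate 1 (4.52%). The share of all genes called higher thus fell or rose along with the count of the 9. In young repopulated relative to young libraries it was 0 without young repopulated replicates 1 or 2 (0.116% and 0.212% of all genes called higher).

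The runs of library numbers differed. Within numbers 12 to 24, edgeR called 8 of the 9 genes higher in old than young libraries (10.4% of all genes higher), 9 in old repopulated (21.9%) and 6 in young repopulated ones (5.41%). In that run Ly6c2 changed by 8.07 ± 0.96 in old, 6.45 ± 0.92 in old repopulated and 4.71 ± 0.89 in young repopulated relative to young libraries (SE, edgeR adjusted p 0.000316, 0.000238 and 0.00708). Within numbers 1 to 11, which hold young replicate 3, 0 of the 9 genes were called in old or old repopulated relative to young libraries (0.00533% of all genes higher in each). All 9 changes in old relative to young libraries were above 0 there, from 0.37 for Fn1 to 3.84 for Ly6c2 (edgeR adjusted p 1 for both), and Ly6c2 was at 2.58 (adjusted p 0.434) in old repopulated libraries. Between old repopulated and old libraries, 0 genes were called in the lower run (0% of all genes), and in the higher run (12.7% of all genes in either direction) 1 was, Fn1, higher by 1.82 ± 0.42 (adjusted p 0.017). Between old and young repopulated libraries of the higher run, 6 of the 9 were higher (18.5% of all genes called higher), namely Ccr2, Plac8, Vcan, Chil3, S100a4 and Fn1. The difference between the repopulation effects was called in that run for 3 genes (8.87% of all genes): Ly6c2 (-6.33 ± 1.2, adjusted p 0.0143), Clec12a (-2.4 ± 0.47, 0.0151) and Fn1 (2.39 ± 0.56, 0.0256).

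The 9 genes did not keep 1 ratio across libraries. On the deposited TPM scale, Ly6c2 over Ccr2 was 2.12, 3.61, 3.17, 1.78 and 4.85 in the 5 old libraries and ran from 0.295 to 2.77 (median 1.04) in the 8 old repopulated ones. In young libraries it ran from 0.219 to 0.816, below all 3 young repopulated libraries at 2.36, 0.956 and 1.49. Old repopulated replicate 2 was uneven: it held the lowest Ly6c2 and Plac8 of its group (2.97 and 2.39 CPM) beside the highest Itga4 and Clec12a (201 and 86.3 CPM). Its Clec12a over Ccr2 was 3.47, where the other old repopulated libraries lay between 0.363 and 1.23. These ratios were computed after the values were seen and were not tested.

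**Figure D4:**
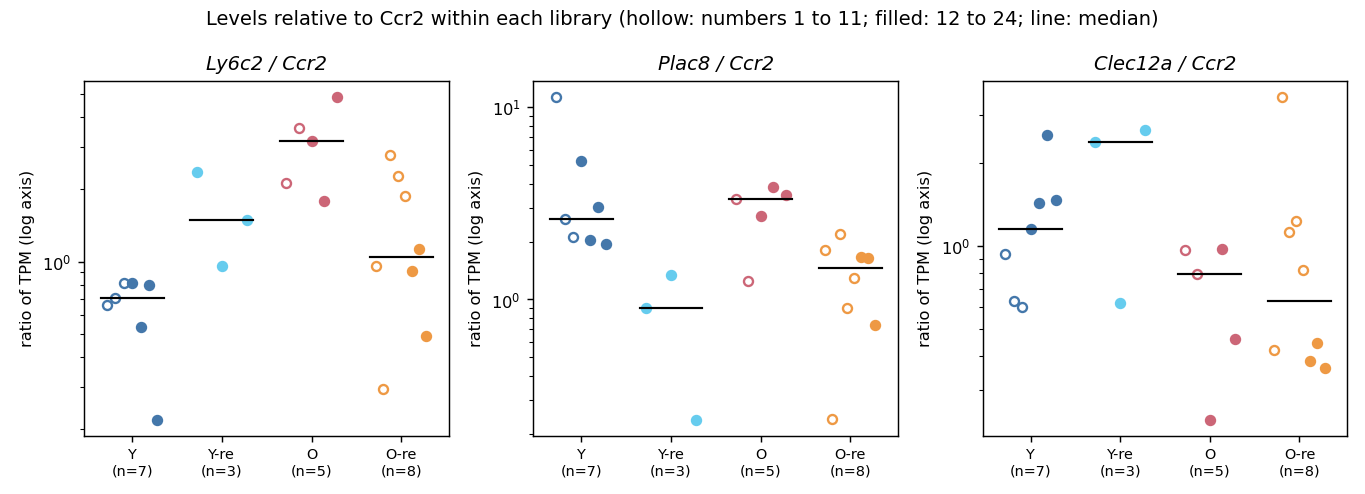
Ratio of deposited TPM of Ly6c2, Plac8 and Clec12a to that of Ccr2 (log axes) in each library by group, hollow for library numbers 1 to 11, filled for 12 to 24, line at the median. For Ly6c2 the old libraries (1.78 to 4.85) lie higher than most of the old repopulated ones (0.295 to 2.77), and within its group old repopulated replicate 2 is the low point for Ly6c2 and Plac8 and the high point for Clec12a.

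Once group means were removed, the genes varied together across the 23 libraries. Pearson's r between pairs of the 9, over within-group deviations of log2 CPM, ran from 0.43 for Plac8 with Fn1 to 0.937 for Ccr2 with S100a4, a description over libraries that share their depth and cell mix for every gene. Ly6c2, Ccr2 and Plac8 were close to each other (0.839 to 0.87), and so were Itga4 and Clec12a (0.929). Among 9694 other genes with a mean of at least 5 CPM, the ones most like the mean of the 9 were Ifitm2 (r = 0.975), Cytip (0.971), Plbd1 (0.968), Emilin2 (0.967) and Gda (0.966). The genes most like Ly6c2 alone were Slfn1 (0.966), Spon1 (0.946) and Zfp821 (0.933), and Zfp821 held medians of 8.27 CPM in young and 10.1 in old libraries.

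All gene lists, the ligands, partners and relatives given above and those below, were chosen with earlier results of these data known. Their counts are descriptions and not independent support for the 9 genes. Relative to young libraries, edgeR called 2.6% of all genes higher in old, 9.29% in old repopulated and 0.828% in young repopulated libraries. Of 20 other classical monocyte genes, 19 were higher in old relative to young libraries (median log2 change 3.44), and Hp missed at 3.07 ± 0.85 (SE, edgeR adjusted p 0.0516). Changes ran from 1.6 ± 0.44 for Ifitm3 and 1.73 ± 0.39 for Smpdl3a to 4.39 ± 0.91 for S100a6 and 5.14 ± 1.18 for F10, the gene of coagulation factor X (adjusted p 0.0472, 0.0186, 0.0106 and 0.0193). In old repopulated relative to young libraries 19 of 20 were higher again, all but Ifitm3 (1.0 ± 0.39, adjusted p 0.086), and between old repopulated and old libraries 0 of 20 were called (median 0.02). In young repopulated relative to young libraries 1 of 20 was called, Klra2 (3.72 ± 0.81, adjusted p 0.0251), with all 20 changes above 0 and a median of 1.95. Of 10 genes of non-classical, patrolling monocytes, 8 were higher in old and the same number in old repopulated relative to young libraries. In old libraries Adgre4 (4.35 ± 0.85, adjusted p 0.00769) and Ear2 (4.04 ± 1.04, 0.0363) had the largest changes and Spn (1.97 ± 0.51, 0.0363) and Itgal (2.04 ± 0.46, 0.018) the smallest called ones, and Eno3 and Nr4a1 (0.2 ± 0.21 and 0.07 ± 0.13) were not called. In young repopulated libraries the one called was Itgal (2.15 ± 0.51, adjusted p 0.0386).

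Markers of other cell types were read beside these genes. Of 14 neutrophil genes, 13 were tested, and 6 were higher in old relative to young libraries. The largest changes were in Cd177 (3.54, edgeR adjusted p 0.0113) and Mmp8 (3.12, 0.00705) and the smallest called ones in S100a8 and S100a9 (both 1.86, 0.0382 and 0.046), and Elane, a granule enzyme of early neutrophils, was too low to test and had no count in 4 of 5 old libraries. In old repopulated libraries 8 of the 13 were higher than in young ones, and in young repopulated libraries 1 was, Mmp8 (2.64, edgeR adjusted p 0.0394). The summed neutrophil level ran from 500 to 656 CPM in young, 558 to 677 in young repopulated, 460 to 708 in old and 333 to 708 in old repopulated libraries, and Csf3r alone had group medians of 269 to 510 CPM. Of 10 dendritic cell genes, 9 were tested and 5 were higher in old libraries, among them Cd209a (4.66, adjusted p 0.00367), Flt3 (3.53, 0.00562), Clec10a (2.33, 0.0363) and Ffar2 (0.0258, with no count in any young library), and Ly6d was too low to test. In old repopulated relative to young libraries 5 were called as well, among them Cd209a (4.92, edgeR adjusted p 0.000307), Flt3 (3.28, 0.00146) and Clec10a (2.34, 0.00786). In young repopulated libraries 1 was, Cd209a (5.23, 0.00195). Of the 9 tested, 7 changes were above 0 in old, 7 in old repopulated and 6 in young repopulated libraries. Xcr1 and Batf3 lay below 0 without a call (-0.41 and -0.5 in old, -1.32 and -0.43 in old repopulated libraries). Zbtb46 (0.28 and 0.08) and Clec9a (0.87 and 1.12) were not called there either. The sum of the 10 dendritic cell genes ran from 14.9 to 24.3 CPM in young, 27.5 to 48.3 in young repopulated, 24.6 to 173 in old and 17.7 to 123 in old repopulated libraries. Of 10 border macrophage genes, 2 were higher in old libraries, Ms4a7 (2.74, adjusted p 0.00812) and Siglec1 (1.45, 0.0251), with 5 higher in old repopulated libraries (Mrc1, Pf4, Cbr2, Ms4a7 and Siglec1) and 1 in young repopulated ones (Ms4a7, 2.47, 0.0394). In each repopulated group 7 of the 10 changes relative to young were above 0. Cd163 and Cd209f lay below 0 without a call (-0.73 and -2.12 in old repopulated, -1.29 and -3.71 in young repopulated libraries). They were also below 0 in old repopulated relative to old libraries (-1.47 and -3.73, not called). Lyve1 was not called in old libraries (3.92 CPM at the young and 3.5 at the old median). Their sums overlapped, at 1080 to 1720 CPM in young, 1460 to 1770 in young repopulated, 1250 to 1930 in old and 673 to 2540 in old repopulated libraries. Stab1 alone had group medians of 1080 to 1350 CPM within these sums, whereas Mrc1 had medians of 48.0, 103, 64.2 and 114 CPM and Ms4a7 of 15.2, 82.1, 113 and 128 CPM in young, young repopulated, old and old repopulated libraries.

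The 12 T and NK genes summed to 1.05 to 5.93 CPM over all libraries, 0 of the 7 tested were called in any comparison, and of the 5 too low to test (Cd3e, Cd3g, Nkg7, Gzmb and Ncr1) Cd3g, Nkg7 and Ncr1 had no count in any young library. Of 7 B cell genes, 5 were tested and 0 rose in old libraries, and Pax5, too low to test, had no count in any young library. Relative to young, Cd79b was lower in young repopulated (-2.43, edgeR adjusted p 0.0454) and old repopulated libraries (-1.63, 0.00892). Ighm was lower in old repopulated libraries (-1.16, 0.0245). Of 7 endothelial genes 1, Flt1, was higher in old libraries (1.01, edgeR adjusted p 0.0258), and of 5 erythroid genes 0 were called. Flt1 was also higher than in young in young repopulated (1.11, 0.0488) and old repopulated libraries (1.16, 0.00206). Pecam1 was lower than in young in both repopulated groups (-1.94, 0.0403 in young and -1.56, 0.00309 in old mice). The summed microglia genes ran from 26400 to 32200 CPM in young, 23600 to 27300 in young repopulated, 10600 to 26900 in old and 10000 to 30200 in old repopulated libraries. All 10 fitted changes were below 0 in old and in old repopulated relative to young libraries (median log2 changes -0.59 and -0.72). Of the 10, 1 was called lower in old libraries, Fcrls (-0.78, edgeR adjusted p 0.034). In old repopulated ones 4 were, Fcrls, P2ry12, Olfml3 and Csf1r. Old replicate 3, with the most Ly6c2 of any library, had the lowest microglia sum of the old group (10600 CPM). Old repopulated replicates 6 and 8, with the most Ccr2 of their group, had 10900 and 10000 CPM, and replicate 7 had 14700 CPM. Ly6c2 did not rank these 3 libraries as Ccr2 did. Its TPM ratio to Ccr2 was 0.917 in replicate 6, 1.13 in replicate 7 and 0.491 in replicate 8. The part of other cells in the levels of the 9 genes was not tested.

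**Figure D5:**
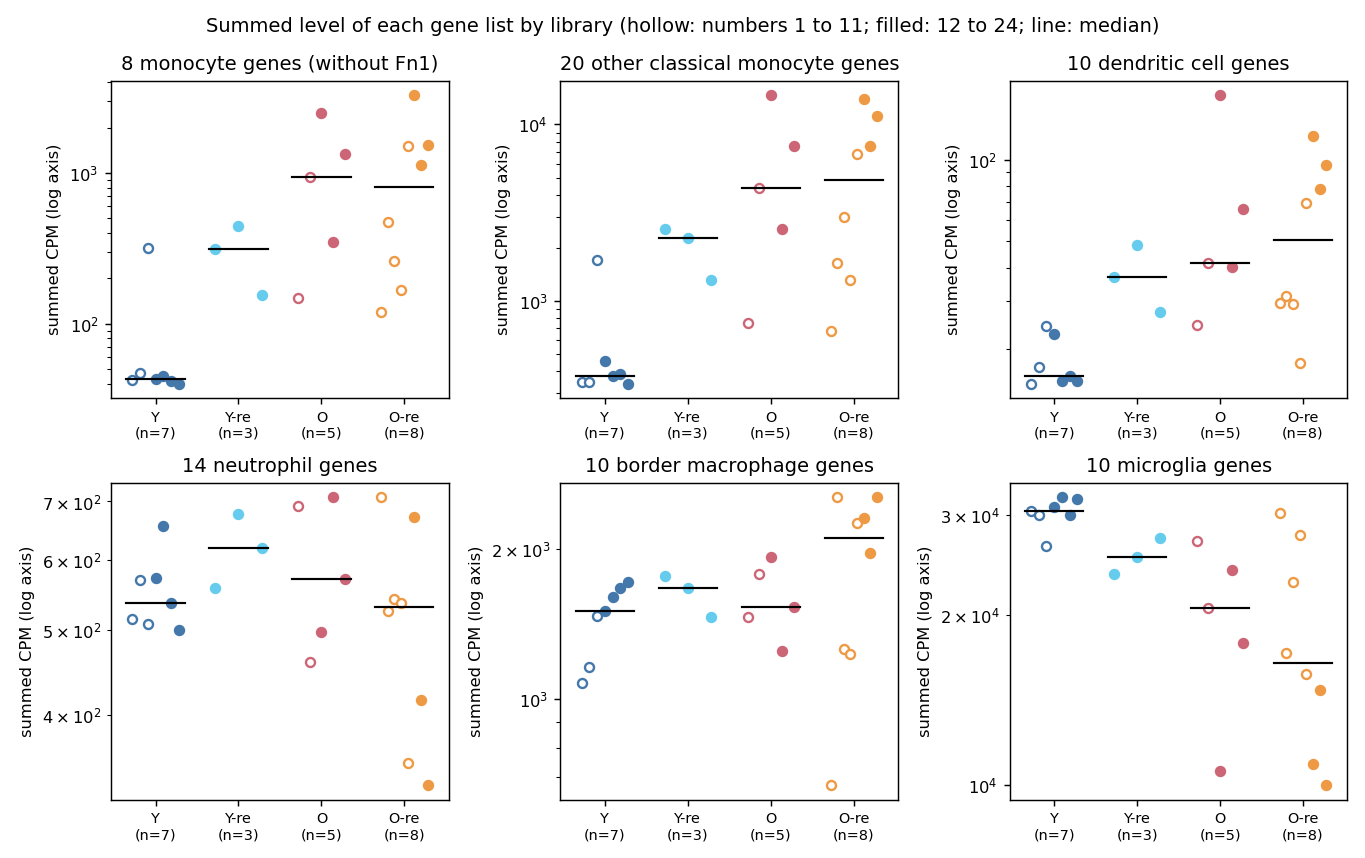
Summed CPM (log axes) of 8 of the monocyte genes, without Fn1, and of 5 gene lists in each library by group, hollow for library numbers 1 to 11, filled for 12 to 24, line at the median. The 8 genes sum to 40.0 to 316 CPM in young and 147 to 2500 CPM in old libraries, and the microglia genes sum to 26400 to 32200 CPM in young and 10600 to 26900 CPM in old libraries. Young and old ranges overlap in every panel except the dendritic one (14.9 to 24.3 CPM in young and 24.6 to 173 CPM in old libraries).

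By group medians, all 9 genes had their 2 highest levels in the old and old repopulated groups. Ly6c2, Ccr2, Plac8 and Chil3 were highest in old libraries (86.8, 114, 32.9 and 513 CPM), and Vcan, S100a4, Itga4, Fn1 and Clec12a in old repopulated ones (12.6, 66.3, 146, 1510 and 60.5 CPM). These neighbours overlapped for all 9 genes, and none was called between them over all libraries. Young repopulated libraries came next for 8 genes, and for Fn1 they were lowest (652 CPM beside 864 in young). Compared per transcript length, Chil3 was the most abundant of the 9 in old libraries at a median of 652 TPM, ahead of Fn1 at 303, Ly6c2 at 204, S100a4 at 132, Plac8 at 84.5, Ccr2 at 56.4, Clec12a at 44.5 and Itga4 at 16.2. In old repopulated libraries Fn1 led at 437 TPM, followed by S100a4 at 239 and Chil3 at 224, and Ly6c2 stood at 70.3.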

How the data were processed

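Poly(A) RNA of 23 mouse microglia libraries was measured. Per the labels' protocols, 2.4 to 147 ng of RNA went into stranded libraries read as single reads of 50 nt, and the submitters' processing notes name FastQC 0.11.5, STAR, RSEM, limma and GRCm38. The sources used here do not say whether counting used strand. The authors deposited expected counts and TPM per gene and library. The expected counts were rounded (87.26% were whole within 1e-06), kept by filterByExpr, scaled by TMM and tested with edgeR 4.0.16 in R 4.3.3, with 1 coefficient per group over all libraries and adjustment over 18720 genes. The deposited TPM values served only for levels and ratios between genes. Log2 CPM used a prior count of 2. Coordinates are from GENCODE M21 for genes with the identical version. The script was tested on simulated data. DESeq2 1.42.0, voom (limma 3.58.1) and the other alternatives are given in the closing section. All 9 genes were named, with the called genes of each list (the 2 largest and 2 smallest changes where over 4 were called), those too low to test, and the genes of highest correlation. List genes that missed a call were named after their values were seen. The members and lists were chosen with earlier results of these data known.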

Additional observations from a re-analysis of the deposited data

Results flagged for a closer look

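Within groups of 4 to 10 libraries, 7 of 27 gene and group combinations had 1 library far from the others, by its gap to the nearest relative to the group's range. The rule flags about 1 in 20 groups of independent, normally distributed values. Here it was applied to CPM without logs, and these genes varied together across libraries (r 0.43 to 0.937). The count of 7 is thus a description and is not set against chance. All 7 were in young libraries. Young replicate 3 was the far one for 6 genes: Ly6c2 at 7.76 CPM (next highest 1.23), Ccr2 at 45.8 (8.43), Chil3 at 152 (10.3), S100a4 at 28.7 (2.73), Itga4 at 45.6 (18.7) and Clec12a at 15.2 (5.87). Young replicate 2 was the far one for Vcan, at 8.0 CPM with 2.64 next. The cause was not tested.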

How the results depend on the processing

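Counts are given in the order O to Y, O-re to O, Y-re to Y, O-re to Y, O-re to Y-re and the difference between the repopulation effects. With all libraries 5, 0, 1, 7, 0 and 0 of the 9 genes were called. The counts over all genes under the same settings are in the next paragraph. RLE size factors and no filter gave the same 6 counts. DESeq2 gave 8, 0, 2, 9, 0 and 1, voom with sample quality weights 7, 0, 4, 9, 4 and 0, robust dispersion and the run of library numbers as a term 4, 0, 1, 7, 0 and 0, and only the groups compared 6, 0, 4, 8 and 0. Library numbers 12 to 24 alone gave 8, 1, 6, 9, 6 and 3, and numbers 1 to 11 gave 0 for O to Y, O-re to O and O-re to Y. Without 1 library at a time the counts ran from 2 to 8, 0 to 0, 0 to 3, 7 to 9, 0 to 0 and 0 to 0. The cause of these differences was not tested. The young range without young replicate 3 was chosen after the data were seen, and it moved the genes lying above that range from 0 to 6 in old, 2 to 6 in young repopulated and 0 to 5 in old repopulated libraries.

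Over the 18720 genes tested, 530, 52, 251, 2847, 0 and 0 were called in either direction. RLE size factors called 533, 54, 239, 2810, 0 and 0 of all genes, and robust dispersion 471, 52, 234, 2837, 0 and 0. DESeq2 called 972, 310, 814, 3691, 81 and 44, voom 2363, 413, 2574, 6646, 3189 and 151, and the run term 618, 114, 326, 4585, 846 and 7. No filter called 462, 34, 165, 2239, 0 and 0, and only the groups compared called 654, 0, 1255, 2440 and 0. Library numbers 12 to 24 called 2691, 2187, 1598, 7068, 6236 and 1524 of 17186 genes. Numbers 1 to 11 called 1, 0 and 2 of 18746 genes for O to Y, O-re to O and O-re to Y. Leave-one-out counts ran from 100 to 941, 5 to 185, 33 to 407, 1955 to 4772, 0 to 1 and 0 to 1.

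Of 1692 recomputed log2 changes of the 9 genes, 1568 kept their direction and side of the threshold and 26 changed sign, all from values that were not called. Between old repopulated and old libraries, Ccr2 was 0.51 with voom, 0.01 with the run term, 0.48 in numbers 12 to 24, 0.9 without old replicate 3 and 0.07, 0.06, 0.07 and 0.08 without old repopulated replicates 1, 2, 3 and 4. There Chil3 was -0.23 with voom, -0.29 in numbers 1 to 11 and -0.48 without old repopulated replicate 6. Vcan was -0.15 and Fn1 -0.09 in numbers 1 to 11, Vcan was -0.25 without old repopulated replicate 6, and Itga4 was -0.06 without old replicate 1. Over all fits that left out 1 library, the ranges there were -0.44 to 0.9 for Ccr2, -0.48 to 0.63 for Chil3, -0.25 to 1.35 for Vcan and -0.06 to 0.71 for Itga4. Between young repopulated and young libraries, Plac8 was -0.23 and Vcan -0.5 with the run term, and -0.67 and -0.35 without young repopulated replicate 2 (leave-one-out ranges -0.67 to 1.38 and -0.35 to 1.35). In the difference between the repopulation effects, Vcan was 0.16 with voom, and with the run term, without young repopulated replicate 2 and without old replicate 3 it was 0.99, 0.86 and 0.66, where S100a4 was 0.49, 0.4 and 0.37 (leave-one-out ranges -0.95 to 0.86 for Vcan and -1.85 to 0.4 for S100a4).

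No paired analysis was possible because the replicate numbers were given in accession order and pair no libraries. The 3 young repopulated libraries were all in library numbers 12 to 24, so their comparison had no value in the lower run. The lowest Ly6c2 value, 0.241 CPM, rested on 11 counts, so the low young values carry counting error too.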
